A study of Mus musculus with 24 samples.

Results

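The 10 genes described here belong to the unfolded protein response, the programme by which a cell adjusts the protein folding capacity of its endoplasmic reticulum (ER). They are the ER chaperones Hspa5, Hsp90b1, Calr and Canx, the protein disulphide isomerases Pdia3, Pdia4 and Pdia6, and the transcription factors Xbp1, Atf4 and Ddit3. Their rows were found by gene symbol, and the set was drawn up with earlier results of these data known. Each matched 1 row of the 47643 genes counted, and all 10 were among the 10159 genes that passed the expression filter. Counts came from plantaris, a fast muscle of the mouse hindlimb, of wild type C57BL/6 mice. Of these, 11 samples were from mice kept in normal air and 13 from mice exposed to tobacco smoke over 16 weeks, and both groups shared strain, genotype and tissue. The labels give no age and do not say that each sample is a separate mouse. The tests set group differences against the spread between these samples, treated as independent. If samples shared a mouse, the p-values would be too small. The 3′-end libraries count transcripts of a gene near the poly(A) tail, so the spliced and unspliced forms of Xbp1 were counted together.

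In the unfolded protein response, unfolded proteins in the ER draw the chaperone BiP, encoded by Hspa5, away from the sensors IRE1 (gene Ern1), PERK (Eif2ak3) and ATF6. IRE1 splices the Xbp1 mRNA, ATF6 is cleaved to an active factor, and both products raise the transcription of chaperones and of factors for ER-associated degradation. PERK phosphorylates the translation factor eIF2α, which favours translation of Atf4, and ATF4 raises its own target genes, among them Ddit3, which encodes the transcription factor CHOP. ATF4 is also made when other kinases sense amino acid shortage or other stress, without any load on the ER. In skeletal muscle, a tissue with an extensive sarcoplasmic reticulum, this response is known to be engaged by exercise and by some forms of wasting.

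The chaperone genes share a promoter element, the ER stress response element (ERSE), that binds NF-Y and ATF6. Its strict form, CCAAT followed by 9 bases of any kind and then CCACG, was searched on both strands of the 250 bases before each RefSeq gene start (GRCm38.p6). It was found in 37 of 32851 promoters (0.113%) and in those of 5 of the 10 genes, Hspa5, Hsp90b1, Calr, Canx and Pdia6. This count is a description with no test, since the element is one that chaperone genes are known to share. Hsp90b1 held 2 matches, 1 in each orientation. The matches follow with 10 bases on either side, in the direction of the gene, with the fixed letters of the element in capitals (CGTGG and ATTGG where it lies in the reverse orientation).
Hspa5, chr2:34772015-34772053, plus strand, 65 to 47 bases before the start: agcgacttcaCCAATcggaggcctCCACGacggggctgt
Hsp90b1, chr10:86705628-86705666, minus strand, 212 to 194 bases before the start: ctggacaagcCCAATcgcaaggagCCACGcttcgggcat
Hsp90b1, chr10:86705523-86705561, minus strand, 107 to 89 bases before the start: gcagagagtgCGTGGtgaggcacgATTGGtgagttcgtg
Calr, chr8:84847065-84847103, minus strand, 162 to 144 bases before the start: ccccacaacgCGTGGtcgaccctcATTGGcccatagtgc
Canx, chr11:50325790-50325828, minus strand, 145 to 127 bases before the start: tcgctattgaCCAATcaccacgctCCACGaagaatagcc
Pdia6, chr12:17266481-17266519, plus strand, 98 to 80 bases before the start: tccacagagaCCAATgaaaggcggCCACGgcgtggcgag

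The 250 bases before the start of Hspa5 and of Ddit3 are shown in full. These genes are the common readouts of the chaperone arm and the ATF4 arm. Capitals mark the strict ERSE match of Hspa5, and the 250 bases before Ddit3 held no strict ERSE. Looser forms of the ERSE were not searched. The GENCODE intervals given for these genes begin upstream of the RefSeq starts used here.
Hspa5, chr2:34771840-34772089, plus strand: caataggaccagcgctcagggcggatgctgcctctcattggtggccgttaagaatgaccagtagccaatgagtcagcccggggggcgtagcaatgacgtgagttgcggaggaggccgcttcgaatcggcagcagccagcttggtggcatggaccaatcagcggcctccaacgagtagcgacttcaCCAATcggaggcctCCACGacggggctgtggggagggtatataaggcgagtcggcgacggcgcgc
Ddit3, chr10:127290543-127290792, plus strand: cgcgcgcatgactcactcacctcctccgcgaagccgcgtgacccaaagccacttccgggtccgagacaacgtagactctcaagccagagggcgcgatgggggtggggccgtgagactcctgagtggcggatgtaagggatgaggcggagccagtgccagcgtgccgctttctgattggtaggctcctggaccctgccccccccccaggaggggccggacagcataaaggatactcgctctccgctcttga
3 further elements were searched on both strands in the same windows. ERSE-II (ATTGG, 1 base of any kind and CCACG) was in 0.0304% of promoters, the core of the unfolded protein response element (TGACGTGG) in 0.563%, and the composite ATF4 and C/EBP element (TGATGNAA) in 3.45%. None of these letters was found in the 250 bases before the start of the 10 genes, and bases farther upstream were not searched. CCAAT alone, which is also part of the ERSE, was in 33.8% of all promoters and in 9 of the 10, all but Xbp1.

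Total counts per sample ranged from 2868808 to 4060568 in air and from 2515697 to 4528845 in smoke, and 3 counts corresponded to 0.665 to 1.15 CPM (counts relative to library size) across samples. All values below are CPM on libraries scaled by the trimmed mean of M values (TMM). They are not divided by gene length and are compared between samples, not between genes. Air replicate 11 stood apart for several of the 10 genes. It was the lowest air sample for 5 of them, Hspa5, Hsp90b1, Canx, Pdia6 and Xbp1. Its TMM scaling factor, 0.857, was also the lowest of all libraries, with smoke replicate 10 next at 0.904. All libraries shared 1 lane and their order on the sample sheet follows the groups, so that sheet order and exposure cannot be told apart, and no value within batches could be had.

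Smoke was compared with air for each of the 10 genes. Ddit3 was lower under smoke by 29.8% (95% interval 39.3% to 18.8% lower), and it was the only 1 of the 10 genes that passed the test (edgeR quasi-likelihood, Benjamini-Hochberg adjusted p under 0.05 over all genes). This test called 1.92% of all tested genes (195 of 10159), 1.19% lower and 0.728% higher under smoke. The chaperones and disulphide isomerases had fold changes close to 0, and Atf4 lay between, lower by 12.3% and short of the threshold. Over the 10 genes, 6 fold changes were negative and 4 positive, with a median log2 fold change of −0.011 beside 0.0066 over all tested genes. In whole muscle, fewer cells of a type and less RNA per cell cannot be told apart.

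**Figure D1:**
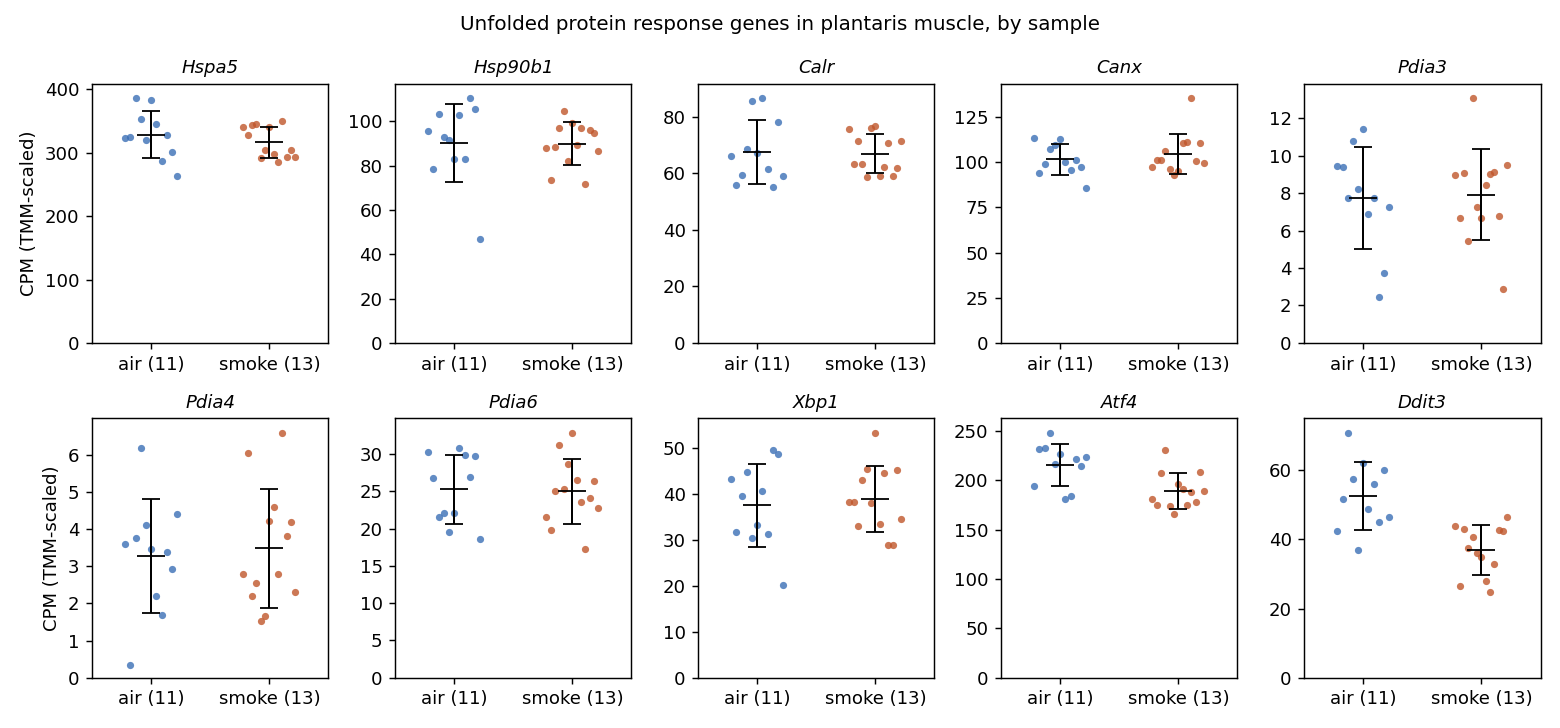
Each panel plots 1 gene, with CPM on TMM-scaled libraries on the vertical axis from 0, a point per sample, and the mean with 1 SD as bars for 11 air and 13 smoke samples. Ddit3 is shifted down under smoke, with a highest smoke value of 46.5 CPM, while the other panels overlap over most of their range and air replicate 11 lies low for Hsp90b1 and Xbp1.

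Hspa5 encodes BiP, the HSP70 chaperone of the ER lumen (GRCm38 chr2:34771970-34777547, plus strand, no overlapping gene in GENCODE M21). It ranged in air from 263 to 386 CPM with a median of 324, and in smoke from 286 to 350 CPM with a median of 305. All 13 smoke samples lay inside the air range. Means were 329 ± 37.3 in air (SD, n = 11) and 317 ± 24.5 in smoke (SD, n = 13), a log2 fold change of −0.053 (adjusted p = 0.723 in edgeR, SE 0.058). The 95% interval of the difference ran from 11.1% lower to 4.53% higher under smoke. Hspa5 had 758 to 1544 counts per sample, so that counting alone gave a coefficient of variation of 2.94% in air, beside a measured 11.4%.

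Hsp90b1, the HSP90 chaperone of the ER also called GRP94, ranged in air from 46.9 to 110 CPM with a median of 92.9, and in smoke from 71.8 to 105 CPM with a median of 89.4. The lowest air value belonged to air replicate 11, and the next air sample was at 78.6 CPM. The log2 fold change was −0.011 (adjusted p = 0.975 in edgeR, SE 0.089), with a 95% interval from 12.4% lower to 12.5% higher. Without air replicate 11 it was −0.082 (edgeR adjusted p = 0.599, range over all alternatives 0.599 to 0.996). Hsp90b1 overlaps 1810014B01Rik on the opposite strand, which had 144 counts over all air samples and 158 over all smoke samples.

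Calr and Canx encode calreticulin and calnexin, the lectin chaperones that hold glycoproteins until they fold. Calr is soluble and also a store of calcium in the lumen. It ranged from 55.1 to 86.6 CPM in air (median 66.1) and from 58.8 to 76.9 CPM in smoke (median 63.5), and all 13 smoke samples lay within the air range. Its log2 fold change was −0.015 (adjusted p = 0.956 in edgeR, SE 0.077), with an interval from 11.1% lower to 10.2% higher. Canx, the membrane-bound partner, ranged from 85.9 to 114 CPM in air (median 100.3) and from 93.0 to 135 CPM in smoke (median 101). Only smoke replicate 10 lay outside the air range, and the next highest smoke sample was at 111 CPM. Canx had a log2 fold change of 0.041 (adjusted p = 0.809 in edgeR, SE 0.060) and an interval from 5.40% lower to 11.9% higher.

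The disulphide isomerases form and rearrange the disulphide bonds of proteins in the ER. Pdia6 ranged from 18.6 to 30.8 CPM in air (median 26.8) and from 17.2 to 32.8 CPM in smoke (median 25.1), a log2 fold change of −0.011 (adjusted p = 0.978 in edgeR, SE 0.10). Its 95% interval ran from 13.9% lower to 14.5% higher. Pdia3, which works with calreticulin and calnexin on glycoproteins, ranged from 2.43 to 11.4 CPM in air (median 7.75) and from 2.90 to 13.1 CPM in smoke (median 8.41), a log2 fold change of 0.047 (adjusted p = 0.943 in edgeR, SE 0.19). Pdia4 ranged from 0.348 to 6.19 CPM in air (median 3.46) and from 1.54 to 6.59 CPM in smoke (median 2.81), a log2 fold change of 0.062 (adjusted p = 0.944 in edgeR, SE 0.25). The groups overlapped over nearly their whole range for all 3 genes.
Precision was low for Pdia3 and Pdia4. They had 9 to 40 and 1 to 23 counts per sample, and their intervals ran from 21.1% lower to 35.3% higher and from 26.9% lower to 49.1% higher. In air the measured coefficients of variation were 35.2% and 46.5%, and counting alone would give 19.4% and 29.1%. The intervals give the precision of the estimates with this spread between samples and this depth, and are not limits of detection. The lowest Pdia4 value, of air replicate 2, was a single count and lay below the 3-count floor.

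**Figure D2:**
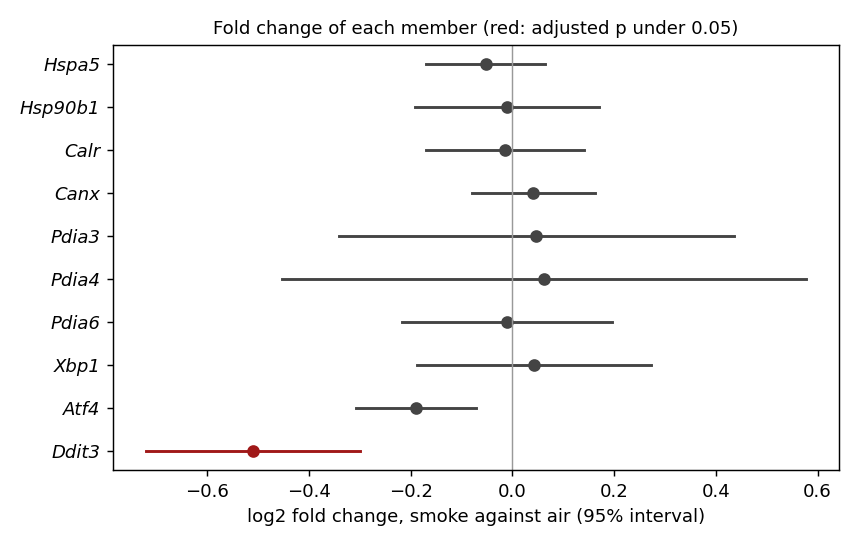
The log2 fold change of smoke against air is plotted for each gene, with its 95% interval from the edgeR fit on 11 air and 13 smoke samples, and red marks an adjusted p under 0.05. Ddit3 at −0.51 and Atf4 at −0.19 are the genes whose intervals stay below 0, and the widest intervals are those of Pdia3 and Pdia4.

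Xbp1, the factor whose mRNA is spliced by IRE1, ranged from 20.1 to 49.5 CPM in air (median 39.5) and from 28.8 to 53.2 CPM in smoke (median 38.2). Smoke replicate 7 was the highest of all samples and air replicate 11 the lowest. Its log2 fold change was 0.043 (adjusted p = 0.909 in edgeR, SE 0.11), with an interval from 12.2% lower to 20.8% higher. These values are total Xbp1 mRNA and say nothing of the spliced share.

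Atf4 encodes the factor whose translation rises when eIF2α is phosphorylated (GRCm38 chr15:80255184-80257541, plus strand, no overlapping gene). It ranged from 181 to 247.9 CPM in air with a median of 222, and from 166 to 231.1 CPM in smoke with a median of 188. The groups overlapped, since 12 of 13 smoke samples but not the highest lay under the mean of air, and 5 of 13 under its lowest sample. Means were 216 ± 21.2 (SD, n = 11) and 189 ± 18.0 (SD, n = 13), a log2 fold change of −0.19 (SE 0.058, 95% interval −0.31 to −0.071). This did not pass over all genes (edgeR unadjusted p = 0.00258, adjusted p = 0.0787). At an unadjusted p under 0.05 stood 2 of the 10 genes, Atf4 and Ddit3, beside 15.5% of all tested genes. Atf4 passed with DESeq2 (adjusted p = 0.0421) and with edgeR without air replicate 7 (adjusted p = 0.0472) or without smoke replicate 4 (adjusted p = 0.0348), in a range over all alternatives of 0.0348 to 0.697.

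Ddit3 encodes CHOP, a C/EBP-family factor that is made late in ER stress and is linked to cell death (GRCm38 chr10:127290774-127296288, plus strand). In air it ranged from 36.8 to 70.8 CPM with a median of 51.8, and in smoke from 24.8 to 46.5 CPM with a median of 37.6. All 13 smoke samples lay below the air mean and 6 of them below the lowest air sample, air replicate 5, while 8 of 11 air samples lay above the highest smoke sample. Mean levels were 52.5 ± 9.86 (SD, n = 11) and 36.9 ± 7.12 CPM (SD, n = 13). The log2 fold change was −0.51 (SE 0.10, 95% interval −0.72 to −0.30, edgeR adjusted p = 0.00538), on 83 to 283 counts per sample. When each sample was left out in turn it stayed between −0.56 and −0.46.
Ddit3 overlaps Mars, the methionyl-tRNA synthetase gene, and Gm4189 in the other orientation, and whether counting used the strand is not given in the sources used here. Mars itself had a log2 fold change of −0.068 (adjusted p = 0.672 in edgeR, SE 0.063), and Gm4189 had 8 counts over all air samples and 13 over all smoke samples. The annotation also holds another gene entry of the name Ddit3 on the same strand.
With an index of circadian clock genes as a covariate, an index that correlated with the group at r 0.75 over the 24 samples, the log2 fold change of Ddit3 was −0.20 and no longer passed (edgeR adjusted p = 0.619, range over all alternatives 0.000314 to 0.619). Time of day of sampling was not given.

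Ddit3 was also set against Hspa5 and Atf4 within each sample, in 3 ratios chosen after the fold changes were seen, so that they restate those fold changes sample by sample and carry no test. The log2 ratio of Ddit3 to Hspa5 was −2.65 ± 0.25 in air (SD, n = 11) and −3.11 ± 0.31 in smoke (SD, n = 13), a difference of −0.46 (SE 0.11). In 12 of 13 smoke samples the ratio was lower than the mean of air. Ddit3 to Atf4 differed by −0.32 (SE 0.11), lower than the mean of air in 11 of 13 smoke libraries. The ratio of Atf4 to Hspa5 differed by −0.14 (SE 0.066), also in 11 of 13.

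Markers of other cells differed between the groups in the same samples. Pmp22 and Prx, genes of myelinating Schwann cells, were called higher under smoke by edgeR and DESeq2 and not by limma voom. Pmp22 was at 33.2 ± 6.21 CPM in air (SD, n = 11) and 61.5 ± 42.6 CPM in smoke (SD, n = 13), with an edgeR adjusted p of 0.0481. For Prx the levels were 3.46 ± 1.23 CPM and 10.0 ± 10.6 CPM, with an edgeR adjusted p of 0.0362. Of 5 blood markers 3 were called lower (Hbb-bs, Hbb-bt and Hba-a2), beside 1.19% of all tested genes. The 5 summed to 486 to 1444 CPM in air and 369 to 883 CPM in smoke. Limma voom called the same 3 blood markers, DESeq2 called Alas2, Hbb-bs and Hbb-bt, and the fit with the replicate number as a block called Hbb-bs and Hba-a2. Ighm, the 1 tested gene of 6 plasma and B cell markers, was called lower by edgeR and DESeq2 and not by limma voom. That list summed to 30.4 to 175 CPM in air and 23.1 to 54.8 CPM in smoke, and Jchain, Igha, Cd79a and Cd79b each had under 50 counts over all samples.
Fibroblasts secrete collagen and carry much ER. Their 8 markers summed to 253 to 385 CPM in air and 232.2 to 384 CPM in smoke, with 7 of 8 fold changes negative and a median log2 fold change of −0.20. By edgeR 0 were called and 3 were lower at an unadjusted p under 0.05 (Fbn1, Col1a1 and Col3a1), beside 7.95% of all tested genes. DESeq2 called 1 (Fbn1), limma voom 0, and the fit with the replicate number as a block 1 (Col1a1), all lower. Of the macrophage, endothelial, adipocyte and muscle fibre markers 0 were called by edgeR, DESeq2 or limma voom. At an unadjusted edgeR p under 0.05 stood 0, 1, 1 and 1 of them. In the same order, 6, 5, 2 and 4 tested markers had negative fold changes and 0, 2, 3 and 4 positive. Over all tested genes 4915 were negative and 5244 positive. The 8 muscle fibre markers, such as Acta1, Ckm and Myh4, were all tested and summed to 184392 to 289099 CPM in air and 190987 to 243256 CPM in smoke. None of the markers listed was at 0 in all samples. The part of these cells in the Ddit3 result was not tested.

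The rest of the pathway was described by 4 lists. Among other ER folding factors (co-chaperones, oxidases, prolyl isomerases and glycan-processing enzymes), 35 of 42 listed genes were tested. By edgeR 0 were called, beside 1.92% of all tested genes, and DESeq2 and limma voom also called 0. At an unadjusted edgeR p under 0.05 stood 3, beside 15.5% of all tested genes. Their median log2 fold change was 0.022, with 14 negative and 21 positive values. Smallest in p was Serpinh1, the collagen chaperone HSP47, at 39.9 ± 8.74 CPM in air (SD, n = 11) and 31.8 ± 4.97 CPM in smoke (SD, n = 13), a log2 fold change of −0.33 (adjusted p = 0.0777 in edgeR, SE 0.10). Serpinh1 passed without air replicate 2, air replicate 11 or smoke replicate 13, at edgeR adjusted p = 0.0477, 0.0308 and 0.0224, in a range over all alternatives of 0.0224 to 0.298. Erp29, an ER folding factor, followed at −0.14 (edgeR adjusted p = 0.281), and Erp44, which retains client proteins in the early secretory pathway, at 0.23 (edgeR adjusted p = 0.299).

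Of the sensors and regulators, 23 of 26 were tested. Beside 1.92% of all tested genes, 1 of these was called by edgeR, lower under smoke. This was Wfs1 (GRCm38 chr5:36966104-36989205, minus strand, no overlapping gene), which encodes wolframin, an ER membrane protein known to restrain ATF6. Wfs1 ranged from 65.4 to 90.9 CPM in air with a median of 73.3, and from 57.7 to 72.9 CPM in smoke with a median of 62.2. All 13 smoke samples were below the air mean and 10 of them below the lowest air sample. The log2 fold change was −0.29 (adjusted p = 0.00934 in edgeR, SE 0.063), and −0.19 with the clock index as a covariate (edgeR adjusted p = 0.439, range over all alternatives 0.00103 to 0.439). Next in p were Ormdl3, a regulator of sphingolipid synthesis in the ER, at −0.21 (edgeR adjusted p = 0.174), and Tmbim6, an ER protein that protects against cell death, at 0.18 (edgeR adjusted p = 0.494).
The 3 sensors themselves and Ppp1r15a were chosen for their role after the values were seen. Ern1 had a log2 fold change of −0.052 (adjusted p = 0.931 in edgeR, SE 0.18) on 9 to 37 counts per sample. For Atf6 it was −0.058 (adjusted p = 0.829 in edgeR, SE 0.092) on 56 to 141 counts. Eif2ak3 did not pass the expression filter, with 3 to 15 counts per air sample and 5 to 22 per smoke sample. Ppp1r15a, which encodes the phosphatase subunit GADD34 that reverses the phosphorylation of eIF2α, stood at −0.24 (adjusted p = 0.568 in edgeR, SE 0.18).

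ER-associated degradation, with translocation into the ER, was represented by 37 tested of 41 listed genes. By edgeR 0 were called, and 1 had an unadjusted p under 0.05, beside 15.5% of all tested genes. Limma voom called 0 and DESeq2 called 1, Ssr1, which encodes a subunit of the translocon-associated complex. Ssr1 was at 37.9 ± 3.75 CPM in air (SD, n = 11) and 46.2 ± 8.25 CPM in smoke (SD, n = 13), with 10 of 13 smoke samples above the air mean. Its log2 fold change was 0.28 (adjusted p = 0.0716 in edgeR, SE 0.085, DESeq2 adjusted p = 0.0483), and it also passed in edgeR without smoke replicate 7 (adjusted p = 0.0444) or smoke replicate 13 (adjusted p = 0.0462), in a range over all alternatives of 0.0444 to 0.628. Syvn1, the ubiquitin ligase HRD1, was at 0.21 (edgeR adjusted p = 0.343) and Derl2, a component of the channel that exports unfolded proteins, at −0.23 (edgeR adjusted p = 0.396). The median log2 fold change of the list was 0.024, with 16 negative and 21 positive values.

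**Figure D3:**
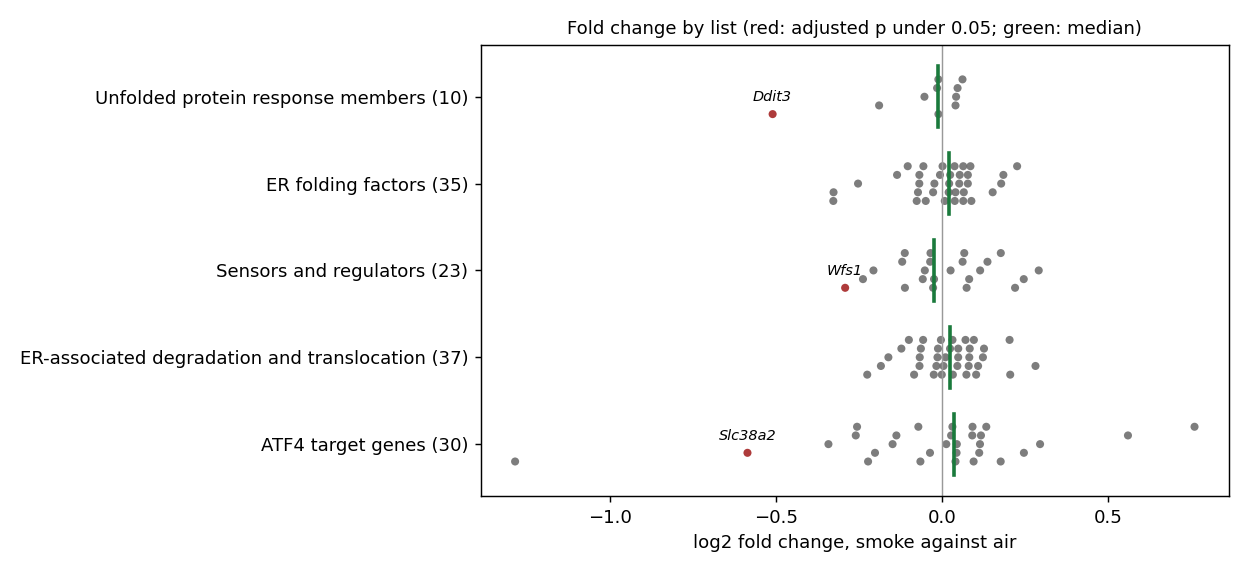
The horizontal axis gives the log2 fold change of smoke against air, and each point is a tested gene of the list named at the left with its number of tested genes; height within a list has no meaning. Red points passed an adjusted p of 0.05, 1 gene in each of 3 lists and all of them lower (Ddit3, Wfs1, Slc38a2), and the green medians lie between −0.024 and 0.036.

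ATF4 targets were the most spread of the 4 lists, with log2 fold changes from −1.29 to 0.76 over 30 tested of 43 listed genes. The median was 0.036, with 12 negative and 18 positive values, and 1 gene was called, beside 1.92% of all tested genes. Slc38a2 (GRCm38 chr15:96687392-96699730, minus strand, no overlapping gene) encodes SNAT2, an amino acid transporter of the plasma membrane. It ranged from 58.3 to 176 CPM in air with a median of 81.6, and from 48.7 to 79.0 CPM in smoke with a median of 66.3. All 13 smoke samples were below the air mean, 4 were below the lowest air sample, and air replicate 5 was the highest. The log2 fold change was −0.59 (adjusted p = 0.00980 in edgeR, SE 0.13). With the clock index as a covariate it was −0.70 and no longer passed (edgeR adjusted p = 0.128, range over all alternatives 0.000143 to 0.128).

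Atf3, a stress-induced factor of the same family as ATF4, had the most negative fold change of the list. It ranged from 0.348 to 14.7 CPM in air (median 6.37) and from 0 to 10.2 CPM in smoke (median 2.20), on 0 to 57 counts per sample. Of the smoke samples 12 of 13 were under the mean of air, and the log2 fold change was −1.29 (adjusted p = 0.0518 in edgeR, SE 0.36). It passed with no expression filter (edgeR adjusted p = 0.00723), with a CPM filter (0.0475), and in 6 fits that left out 1 sample (air replicate 1, 2, 9 or 11, or smoke replicate 2 or 13, at 0.00964 to 0.0474), in a range over all alternatives of 0.00723 to 0.183. Atf5, another factor of the family, fell short as well, at 69.6 ± 10.9 CPM in air (SD, n = 11) and 58.4 ± 6.75 CPM in smoke (SD, n = 13), a log2 fold change of −0.26 (adjusted p = 0.0780 in edgeR, SE 0.078). It passed without air replicate 7 (edgeR adjusted p = 0.0300, range over all alternatives 0.0300 to 0.895). Atf5 overlaps Nup62 and Il4i1 on the opposite strand, and Atf3 overlaps Gm24748.

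At an unadjusted p under 0.05 the list held 7 genes lower and 2 higher under smoke of 30 tested, beside 7.95% and 7.55% of all tested genes, and those not yet named were singled out after their values were seen. Lower were Nupr1, a stress-induced chromatin protein, at a log2 fold change of −0.34, the tRNA synthetases Aars at −0.22 and Nars at −0.14, and Shmt2, a mitochondrial enzyme of serine use, at −0.26 (edgeR adjusted p from 0.0781 to 0.228). Higher were Chac1, a glutathione-degrading enzyme, at 0.76, and Psph, the last enzyme of serine synthesis, at 0.56 (edgeR adjusted p = 0.152 and 0.0914). Some targets encode secreted proteins that are measured in blood as signs of mitochondrial or ER stress. Of these, also chosen after their values were seen, Fgf21 had 1 count over all air samples and 1 over all smoke samples, and Gdf15 had 7 and 4.

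**Figure D4:**
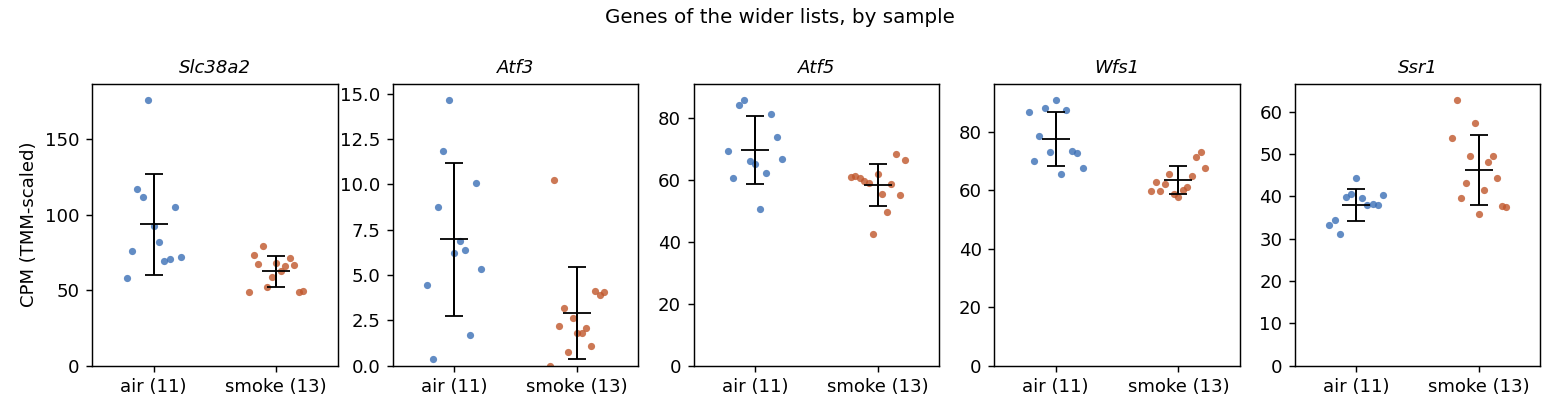
CPM on TMM-scaled libraries is plotted from 0 for 5 genes of the wider lists, with a point per sample and the mean with 1 SD for 11 air and 13 smoke samples. Slc38a2 and Wfs1, which passed the test, have all smoke points below the air mean, while Atf3, Atf5 and Ssr1 did not pass in edgeR.

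Variation among samples of a group was used to ask whether the 10 genes moved together. With group means removed from log2 CPM, Pearson's r over 24 samples was positive for 29 of 45 pairs, with a median of 0.090 and a range from −0.46 to 0.80. The highest values joined Xbp1, Hsp90b1 and Pdia6. Xbp1 with Hsp90b1 stood at 0.80, Xbp1 with Pdia6 at 0.58 and Hsp90b1 with Pdia6 at 0.55. Without air replicate 11 these were 0.67, 0.48 and 0.47. The lowest, −0.46, was between Pdia4 and Pdia6.

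Within groups, these 3 pairs were chosen because they had the highest r over the same samples, so their values are a description with no test. Xbp1 with Hsp90b1 had r 0.91 and rho 0.85 in air (n = 11), and leaving out the 2 samples with Xbp1 farthest from its median gave r 0.88. In smoke (n = 13) the same pair had r 0.55 and rho 0.59. Hsp90b1 with Pdia6 in smoke had r 0.70 and rho 0.62, and leaving out smoke replicates 10 and 2 gave r 0.25, so that the value rested on this pair. Xbp1 with Pdia6 had r 0.57 in air, which rested on air replicates 11 and 5 (0.11 without them), and 0.60 in smoke (0.52 without smoke replicates 7 and 11). Hsp90b1 with Pdia6 in air had r 0.52, and 0.12 without air replicates 11 and 9. Ddit3 with Atf4, also chosen after the values were seen, had r 0.29 in air and 0.28 in smoke, and rho 0.44 and 0.26.

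Hspa5, although the usual readout of the response, did not pass a test with any of the other 9 genes in either group. Over these 18 relations r ran from −0.38 to 0.63, rho from −0.35 to 0.56, and Benjamini-Hochberg adjusted permutation p from 0.381 to 0.957 for r and from 0.5003 to 0.947 for rho. At an unadjusted permutation p under 0.05 stood Hspa5 with Canx in air for r, at 0.63 (permutation p = 0.0388) with r 0.59 without 2 samples, and Hspa5 with Atf4 in smoke for rho, at 0.56 (permutation p = 0.0495).

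**Figure D5:**
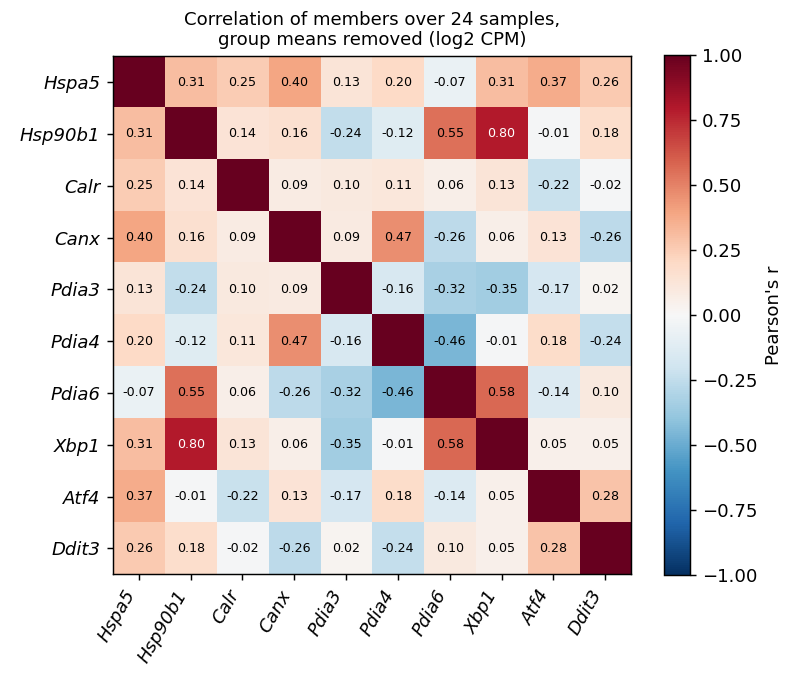
Each cell gives Pearson's r between 2 of the 10 genes over 24 samples on log2 CPM after the mean of each group was removed, in blue below 0 and red above. Xbp1, Hsp90b1 and Pdia6 show the 3 highest values, from 0.55 to 0.80, and the row of Hspa5 runs from −0.069 to 0.40, or from −0.31 to 0.48 without air replicate 11.

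The genes most like Hspa5 by this measure, out of 10158, were Armc1 (r 0.78), Ppp3r1 (0.74), Dusp23 (0.69), Nkiras2 (0.68) and Tomm70a (0.68). The closest of the 10 was Canx at rank 376 (r 0.40), then Atf4 at rank 481 (r 0.37) and Hsp90b1 at rank 834 (r 0.31), and Pdia6 was at rank 6476 (r −0.069). This order rested on air replicate 11: without it r with Hspa5 was 0.48 for Atf4, 0.34 for Pdia4, 0.25 for Canx, −0.15 for Hsp90b1 and −0.31 for Pdia6. For Atf4 the 5 most alike were Ino80c (r 0.76), Bckdhb (0.67), Lrrc59 (0.67), Ppp6r3 (0.66) and Snap23 (0.66). Hspa5 stood at rank 477 and Ddit3 at rank 1090 (r 0.28) in that order. These values describe 24 libraries that share lane and sequencing depth range, and no test was made of them.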

How the data were processed

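Plantaris muscle was profiled in 11 air and 13 smoke samples, grouped by their titles, from QuantSeq 3′ libraries sequenced on a HiSeq 4000, per the labels' protocols. The authors deposited raw read counts per Ensembl gene. The submitters' processing notes name STAR, DESeq2 and the build mm9, with no role. The annotation, the counting tool and strand use are not given in the sources used here. Symbols and positions came from GENCODE M21 (GRCm38), which held 99.1% of the IDs, and promoters from RefSeq (GRCm38.p6), matched by symbol for all 10 genes; neither is the build of the notes.

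Counts were fitted with edgeR 4.0.16 in R 4.3.3: filterByExpr with a minimum count of 10, TMM scaling, a quasi-likelihood F-test of smoke against air on all 24 samples without covariates, and Benjamini-Hochberg adjustment over all tested genes. Intervals are 95%. Floors are 3 counts and cover counting error only. Log2 CPM used a prior count of 2, and the permutation tests of Hspa5 with the other 9 genes used 100000 resamples (two-sided). The fit was tested on simulated data. No samples were merged: chi-square per gene was 2.51 to 18.7 over the 133 same-group pairs. The 10 genes and the lists were chosen with earlier results of these data known. Named genes were the 10, of each list the called genes and the 3 with the smallest p, and the 5 most like Hspa5 and Atf4; others are marked as chosen after their values were seen. Alternatives were DESeq2 1.42.0, voom in limma 3.58.1, scaling by RLE or upper quartile, other filters, removal of the 10 most abundant genes, a clock index as a covariate, the replicate number as a block, and leaving out each sample. The result of 1 marker list is not reported here as a whole.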

Additional observations from a re-analysis of the deposited data

How the results depend on the processing

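Over 195 genes called in all, 1 of the 10 and 2 of the wider lists, limma voom, scaling by RLE or upper quartile, other filters and removal of the most abundant genes stayed within 1.5 times. DESeq2 called 323 genes and 2 of the 10 (Ddit3 and Atf4). With the clock index as a covariate edgeR called 5 genes, 0 of the 10 and 0 of the wider lists (1186 genes and 0 of the 10 at an unadjusted p under 0.05; the cause was not tested). Leaving out each sample gave 141 to 254 genes, 1 to 2 of the 10 and 2 to 5 of the wider lists: 2 of the 10 without air replicate 7 or smoke replicate 4, and of the wider lists 4 without air replicate 2 or 7 and 5 without air replicate 11 or smoke replicate 13.

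Some fold changes turned sign. Hsp90b1 was at 0.0092 with limma voom, 0.0029 with the block and 0.16 with the clock index, under which Canx was at −0.0069, Pdia3 at −0.20, Pdia4 at −0.11, Pdia6 at 0.097 and Derl2 at 0.0042 (−0.23 without the index). With samples left out, Hsp90b1 ran from −0.082 to 0.019, Calr from −0.045 to 0.025, Pdia3 from −0.059 to 0.12, Pdia4 from −0.048 to 0.19, Pdia6 from −0.055 to 0.021 and Xbp1 from −0.025 to 0.088. Ddit3, Atf4 and Hspa5 kept their sign under all alternatives run. A prior count of 0.5 and RLE scaling also left 0 of the 18 correlations of Hspa5 past the threshold.

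Replicate numbers recur in both groups, but same-numbered samples did not deviate together (r from −0.28 to 0.14 over 11 pairs, mean −0.0059, beside 0.0011 over other pairs; 2 of 11 air samples correlated best with their own number). With the replicate block over 22 samples 138 genes, 1 of the 10 (Ddit3, −0.57, edgeR adjusted p = 0.00601) and 2 of the wider lists were called. Eif2ak3 was too low in counts to be tested, and counting error was largest for Pdia4 and Pdia3 among the 10 genes.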
